A study of Mus musculus with 45 samples.

Results

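Adipocytes of ApoE null mice that had eaten a Western diet for 16 weeks (EW16, n = 8) were compared with adipocytes of ApoE null mice that had eaten chow for the same time (EC16, n = 5). These 13 mice, of 45 in the series, were taken by genotype, diet and duration alone, and all 45037 probe sets of the array were compared. Both groups were female C57BL/6 mice homozygous for the ApoE deletion (ApoE -/-), entered the diet at 8 weeks of age and were 24 weeks old at the end. The Western diet was a high-fat diet from Harlan-Teklad, and the control diet was a Teklad chow. One Affymetrix MG430-2.0 array, which measures labelled RNA by hybridisation to short probes, was run per mouse. The adipocytes came from the parametrial and periovarian fat pads around the uterus and ovaries. For comparison, mice that carried heterozygous deletions of the insulin receptor and of IRS1 on the same ApoE null background (IR+/- IRS1+/- ApoE-/-) had eaten the Western diet (DW16, n = 9) or chow (DC16, n = 5) from the same age for the same 16 weeks. All of these mice lacked ApoE, so no group shows the diet response of a wild-type mouse.

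White adipocytes store triglyceride, take up glucose and fatty acids in response to insulin, and secrete hormones such as leptin and adiponectin. ApoE is a ligand by which lipoprotein remnants are cleared from blood, and mice without it have high plasma cholesterol that rises further on a Western diet. Cells handle surplus cholesterol partly through LXR, a nuclear receptor for oxysterols that raises efflux transporters, and handle oxidants through NRF2, a transcription factor for glutathione, thioredoxin and heme-degrading enzymes. The labelled cell type was checked first, with 2 markers chosen after their values were seen. The adipocyte hormone Adipoq lay between 13.27 and 14.61 in the 13 mice, in log2 units in which the median of all values was 5.57. The fatty acid binding protein Fabp4 lay between 13.63 and 14.78. Over the 13 mice, the median level was 12.94 for adipocyte genes, 9.44 for endothelial, 8.90 for macrophage and 6.61 for mesothelial markers. The highest endothelial marker, Cldn5, was at 13.08, and the highest of the macrophage list, Lgals3, at 13.09. High Adipoq and Fabp4 therefore do not show that the preparations held adipocytes alone.

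The 8 EW16 arrays were of 3 kinds, and each result below rests on that. Mice 1 to 3 had a narrow range of values, with an SD over probe sets of 2.11 to 2.32 against 2.46 to 2.50 in EC16. Mice 5 to 8 lay apart from the chow mice on the second principal component, at 50.7 to 60.0 against -43.0 to -24.6. The array labelled EW16 mouse 4 lay near the chow mice on both components (28.0 and -24.9). In mouse 4, 66% of the probe sets called in the comparison were nearer to the EC16 mean than to the mean of the other EW16 mice, against 0.833% to 4.67% in the remaining 7. Among DW16 arrays, 7 of 9 had the narrow range, and no chow array had it. The part of these array differences in the results was not tested, and values without mice 1 to 3 and without mice 5 to 8 are given for the counts, the leading genes and the main lists. Of the 59 probe sets named in the text that passed with all 13 mice, 52 also passed without mice 1 to 3, the others being Rab14, Lcn2, Bcat2, Gata3, Krt19, Wt1 and Psma4. Without mice 5 to 8, 1 of the 59 passed (Ppp1r14b), and the remaining 58 kept their sign with adjusted p-values of 0.0153 to 0.0556. The 59 were picked for their size or p-value in these same arrays, so their counts do not stand for all called probe sets.

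**Figure D1:**
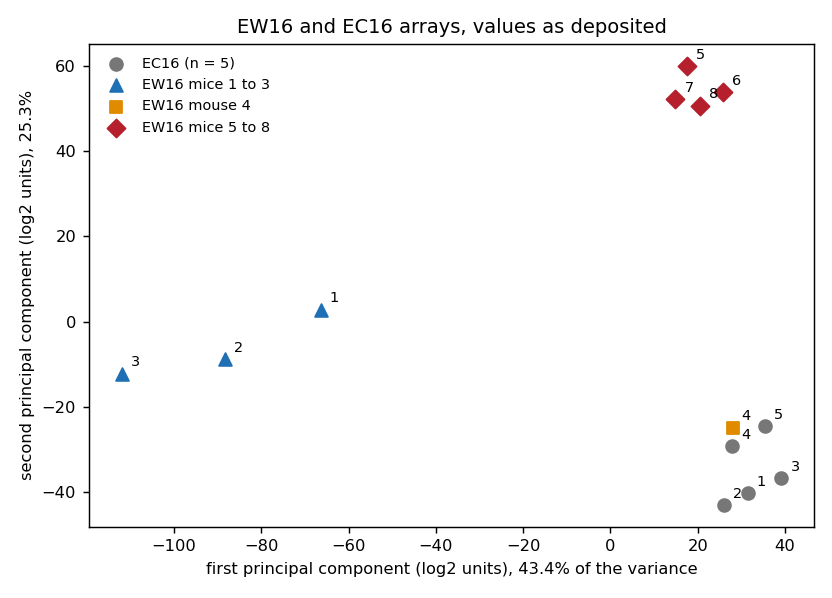
First and second principal component scores of the 13 arrays (43.4% and 25.3% of the variance), 1 point per mouse. The EC16 mice and EW16 mouse 4 lie together, EW16 mice 5 to 8 lie at high values of the second component, and EW16 mice 1 to 3 lie at -112 to -66.4 on the first.

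The cytochrome P450 gene Cyp1a1 and the heme-degrading enzyme gene Hmox1 were lower on the Western diet, as were 5 of 20 measured NRF2 and glutathione genes, Hmox1 among them. Irs2, Klf5, 2 of 14 muscle markers and 3 of 12 mesothelial markers were lower too. Over 18193 genes with 1 probe set each, 640 (3.52%) were lower. The transferrin receptor gene Tfr2 and the cholesterol genes Abcg1 and Gramd1b were higher. Of 45037 probe sets, 1200 (2.66%) passed an adjusted p of 0.01 in limma, a linear model fitted across all probe sets with Benjamini-Hochberg adjustment. Of these, 122 (0.271%) were higher and 1078 (2.39%) were lower in EW16. They named 1018 genes, of which 93 had a probe set that rose and 926 one that fell. The EW16 and EC16 values did not overlap in 2141 probe sets (4.75%), which included 861 of the 1200.

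The split between rises and falls moved with the scaling. After quantile normalization over all 45 arrays, which gives every array the same distribution of values, 1187 probe sets (2.64%) passed, 429 of them higher (0.953%) and 758 lower (1.68%). The share of calls that were rises was thus 10.2% as deposited and 36.1% after quantile normalization, and it was 7.46% after centring each array on its median. With the probe sets ordered by mean level and cut into 10 equal bins, the median difference in the highest bin was -0.28 as deposited and -0.03 after quantile normalization. In the lowest bin it was 0.099 and 0.020. Both scalings called 686 probe sets (1.52%) in the same direction. Without mice 1 to 3 the deposited values gave 3160 calls (7.02%), of which 1383 were higher (3.07%) and 1777 lower (3.95%), and 43.8% were rises. Without mice 5 to 8 they gave 1 call (0.00222%), Ppp1r14b, and quantile normalized values gave 50 (0.111%). Quantile normalized values without mice 1 to 3 gave 3177 (7.05%). With EW16 mouse 4 left out the deposited values gave 3177 calls. Leaving out a chow mouse lowered the count, to 38 without mouse 2, 70 without mouse 3 and 73 without mouse 1.

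**Figure D2:**
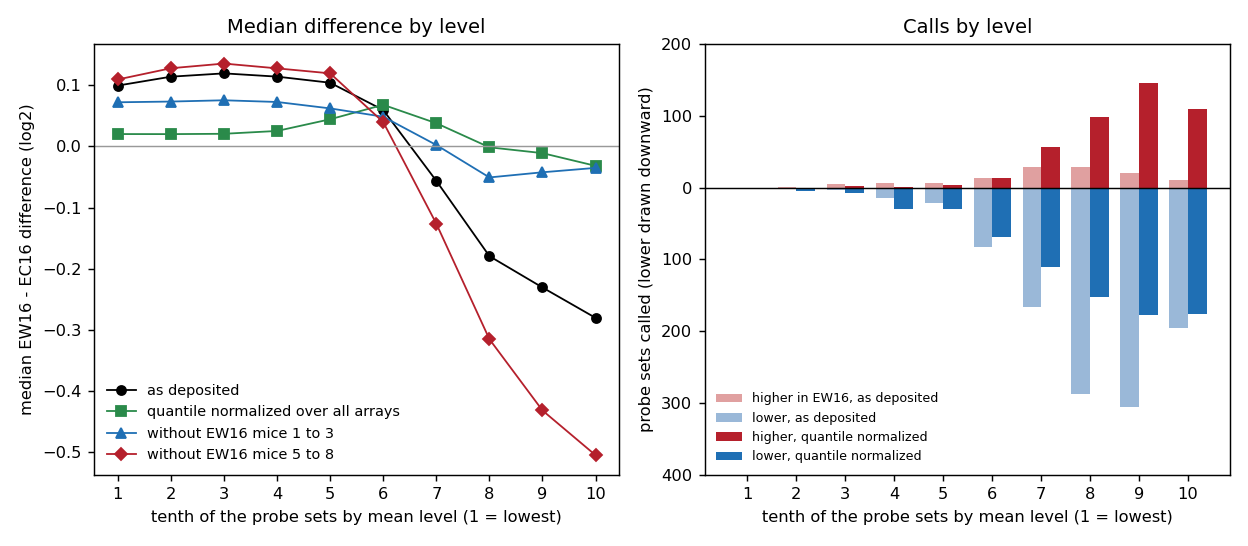
In 10 equal bins of the probe sets ordered by mean level, the left panel gives the median log2 difference, EW16 minus EC16, for the deposited values, after quantile normalization and without mice 1 to 3 or mice 5 to 8, and the right panel gives the number of probe sets called higher (upward bars) and lower (downward bars) in both scalings. The deposited difference runs from 0.099 in the lowest bin to -0.28 in the highest, while the quantile normalized medians stay between -0.03 and 0.07.

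In all 13 fits with 1 mouse left out, 33 probe sets passed, all lower in EW16 by 0.83 to 3.23 on the log2 scale and none overlapping between the groups. All 33 also passed after quantile normalization and without mice 1 to 3. They were selected for passing in fits of these same arrays, so the separation and the further passes are no independent check. Of all 1200 calls, 1078 were lower and 861 did not overlap. Without mice 5 to 8, the highest adjusted p among them was 0.0210. Ppp1r14b, which encodes an inhibitor of a protein phosphatase and was chosen after its values were seen, had the smallest adjusted p of all probe sets. Its EC16 values were 6.16, 6.32, 6.17, 6.18 and 6.13, and EW16 ran from 4.54 to 5.15 with a median of 4.76. The difference was -1.39 (SE 0.102, adjusted p = 9.05e-05), and it was -1.49 without mice 5 to 8 (adjusted p = 0.0016). No EW16 mouse reached the lowest chow mouse. The EW16 values of this probe set were low, all under 5.57, the median of all values. Of the 3 probe sets of Ppp1r14b, the one with the highest level (9.93) fell by 1.14 as deposited (adjusted p = 0.00626). It also passed without mice 1 to 3 (adjusted p = 0.00859) but not after quantile normalization (-0.91, adjusted p = 0.0287). The remaining one was at 0.09 (adjusted p = 0.719). The pass without mice 5 to 8 thus belongs to a single probe set of low level.

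Cyp1a1, the cytochrome P450 induced by the aryl hydrocarbon receptor, fell most. The 5 chow mice measured 10.36, 10.92, 10.64, 10.47 and 10.73, and the EW16 mice lay between 6.08 and 8.92 with a median of 7.23. All 8 mice on the Western diet were thus below the chow range, mouse 4 included at 8.34. The mean was 9.41-fold lower (log2 difference -3.23, SE 0.391, adjusted p = 0.00168), and the difference was -3.04 after quantile normalization (adjusted p = 0.00219). It was -3.47 without mice 1 to 3 (adjusted p = 0.000534) and -2.70 without mice 5 to 8 (adjusted p = 0.0158). No other of the 9 measured genes on the list of aryl hydrocarbon receptor targets passed the test in either scaling. The list's median difference was -0.04, against 0.013 over 18193 genes taken with 1 probe set each, and it was 0.21 without mice 1 to 3 and -0.08 without mice 5 to 8. Its next smallest p-values belonged to Ahrr, the receptor's repressor, at 0.26, and to the quinone reductase Nqo1, at 0.24. Their levels were low, at 3.57 to 4.38 for Ahrr and 4.65 to 5.59 for Nqo1, where the median of all values was 5.57. Little can be read from their differences. The 250 bases before the RefSeq start of Cyp1a1 (GRCm38.p6, chr9:57697363-57697612, plus strand) are shown because this gene had the largest change, with the dioxin response element core GCGTG in capitals.
Cyp1a1: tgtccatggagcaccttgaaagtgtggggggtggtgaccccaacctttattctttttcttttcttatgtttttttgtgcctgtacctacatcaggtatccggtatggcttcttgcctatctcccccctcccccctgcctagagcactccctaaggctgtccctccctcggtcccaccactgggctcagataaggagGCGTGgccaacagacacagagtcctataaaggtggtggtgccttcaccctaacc
The core was searched on both strands and matched once, 49 bases before the start. It is a short motif and was found in 28.2% of 32851 RefSeq promoters of that length.

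Hmox1, which degrades heme, was 4.13-fold lower on the Western diet. Its chow values were 11.25, 11.65, 11.35, 10.83 and 11.91, and its EW16 values ran from 8.81 to 9.75 with a median of 9.44. The groups did not overlap, and the difference was -2.05 as deposited (SE 0.187, adjusted p = 0.00053) and -1.80 after quantile normalization (adjusted p = 0.00119). It was -2.02 both without mice 1 to 3 (adjusted p = 0.000534) and without mice 5 to 8 (adjusted p = 0.0153). Gclm, the modifier subunit of the enzyme that limits glutathione synthesis, measured 11.04, 11.08, 10.79, 10.84 and 10.76 on chow and 8.97 to 10.12 (median 9.21) on the Western diet. It fell by 1.56 (SE 0.169, adjusted p = 0.00127), and was at -1.50 without mice 5 to 8 (adjusted p = 0.0153). The other probe set of Gclm did not pass (-0.60, adjusted p = 0.222). The secreted glutathione peroxidase Gpx3 measured 13.66, 13.83, 13.65, 13.27 and 13.58 on chow and 10.29 to 13.30 (median 11.67) on the Western diet. The highest of these EW16 values was mouse 4, the one EW16 mouse within the chow range, and the difference was -1.96 (SE 0.366, adjusted p = 0.00653). The glutathione transferase Gstm1 fell by 1.06 (adjusted p = 0.00456) without overlap. Of its 4 probe sets, 2 fell, and the differences ran from -1.07 to 0.15.

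Of the 20 measured genes on the NRF2, thioredoxin and glutathione list, 5 fell and none rose, against 3.52% of all genes that fell and 0.236% that rose when each was taken with the probe set of highest mean. The fifth, named after its values were seen, was the glutathione transferase Gsta3, at -1.12 (adjusted p = 0.00534). Its other probe set, not used for the list, was at 0.23 (adjusted p = 0.378). After quantile normalization Gsta3 no longer passed (adjusted p = 0.0156), whereas Srxn1, which repairs oxidised peroxiredoxins and was also named after its values were seen, passed at -1.04 (adjusted p = 0.0068). That is the Srxn1 probe set used for the list, which did not pass as deposited (-1.27, adjusted p = 0.0179). The 3 other probe sets of Srxn1 fell as deposited, by 0.85, 1.07 and 1.65 (adjusted p = 0.00452, 0.0026 and 0.00628). The median difference of the list was -0.36, and -0.19 after quantile normalization, against 0.013 and 0.021 over all genes. It was -0.17 without mice 1 to 3, when 6 members fell and 1 rose, and -0.48 without mice 5 to 8, when none passed. In total 17 of the 20 had a negative difference, with all but these 6 outside the threshold in both scalings. The promoters of 3 of these genes are shown because the genes fell together, with the core of the antioxidant response element, TGACNNNGC on either strand, in capitals. They are the 250 bases before the RefSeq start in GRCm38.p6, on the plus strand, of Gclm (chr3:122245307-122245556), Gsta3 (chr1:21240335-21240584) and Gpx3 (chr11:54902604-54902853).
Gclm: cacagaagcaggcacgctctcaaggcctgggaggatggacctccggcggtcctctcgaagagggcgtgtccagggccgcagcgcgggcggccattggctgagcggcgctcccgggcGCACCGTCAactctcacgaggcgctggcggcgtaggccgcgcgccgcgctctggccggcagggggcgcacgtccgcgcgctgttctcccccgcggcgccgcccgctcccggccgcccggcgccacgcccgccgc
Gsta3: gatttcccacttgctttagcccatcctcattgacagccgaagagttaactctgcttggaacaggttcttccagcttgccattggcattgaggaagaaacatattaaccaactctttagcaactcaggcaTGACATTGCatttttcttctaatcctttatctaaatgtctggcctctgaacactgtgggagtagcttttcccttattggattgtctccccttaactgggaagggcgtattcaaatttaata
Gpx3: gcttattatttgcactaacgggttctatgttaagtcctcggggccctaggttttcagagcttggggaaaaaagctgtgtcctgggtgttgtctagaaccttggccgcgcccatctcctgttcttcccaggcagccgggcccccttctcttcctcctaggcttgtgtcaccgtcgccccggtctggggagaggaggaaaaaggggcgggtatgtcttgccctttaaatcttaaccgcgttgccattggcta
Gclm had 1 match, on the reverse strand and 125 bases before the start, and Gsta3 had 1 on the forward strand, 112 bases before it. Gpx3 had none in this window. Of the 32851 promoters, 10.2% held a match. Among the 16 list members with a promoter in the table, 5 held a match, of which 2 were among the 4 that fell and 3 among the other 12. The 2 cores can overlap, since the first ends and the second begins with GC.

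**Figure D3:**
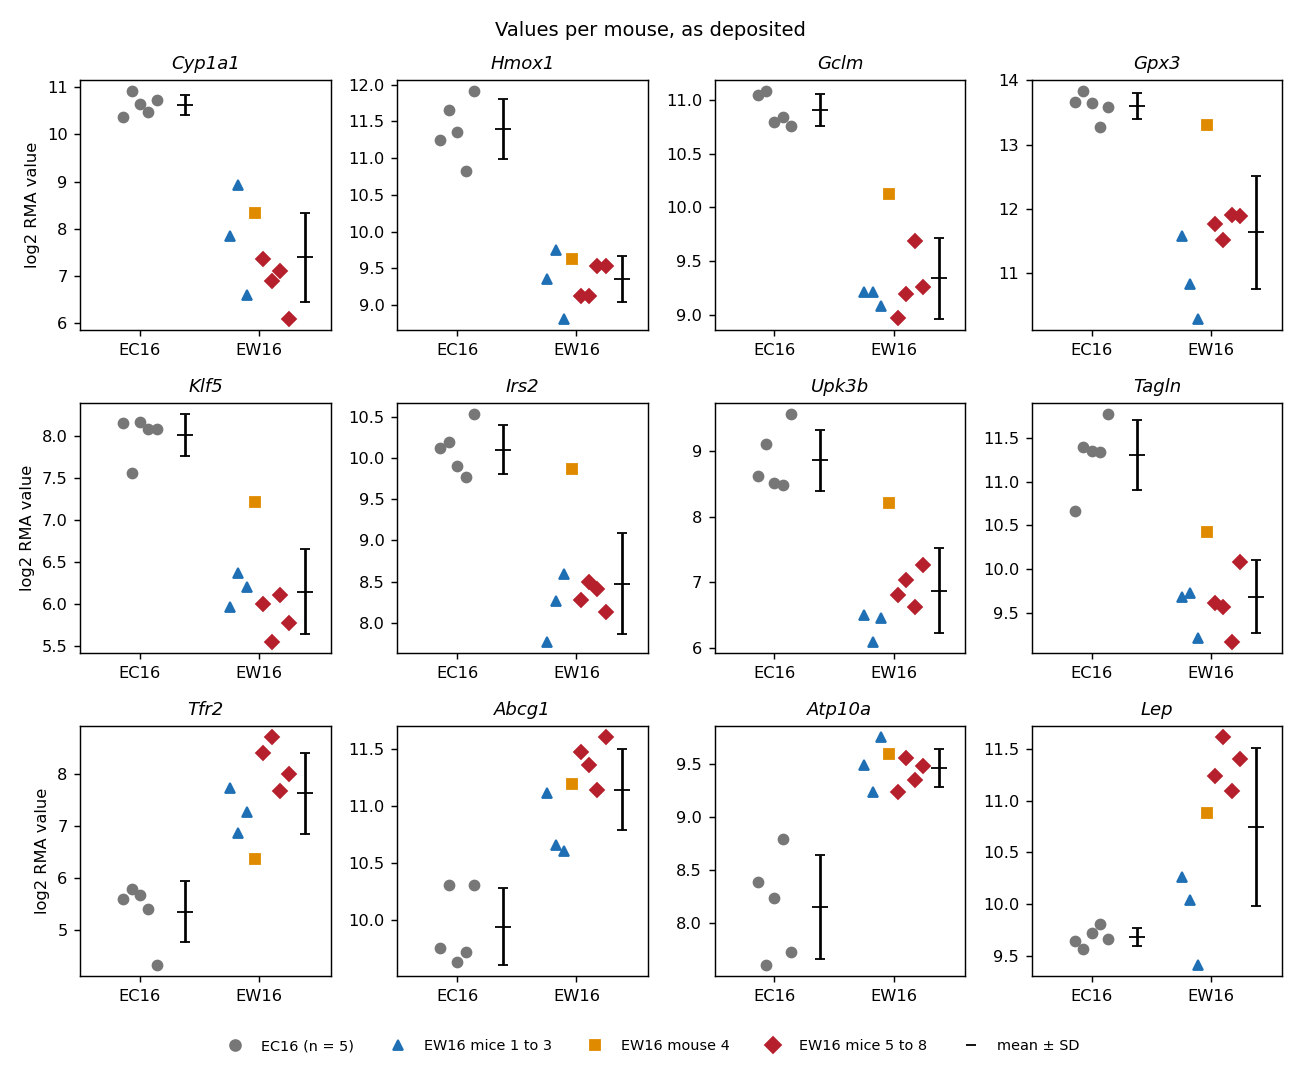
Log2 level of 12 genes in each of the 8 EW16 and 5 EC16 mice, with the mean and SD of each group. EW16 mouse 4 lies at or near the chow values for Gpx3 and Irs2 and with the other EW16 mice for Cyp1a1, Hmox1 and Abcg1.

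Among genes of insulin action, Irs2, a docking protein of the insulin receptor, fell 3.08-fold. Chow mice measured 10.12, 10.19, 9.90, 9.77 and 10.53, and EW16 mice 7.77 to 9.86 with a median of 8.35. Mouse 4, at 9.86, was the one EW16 mouse inside the chow range. The difference was -1.62 (SE 0.27, adjusted p = 0.0041), -1.40 after quantile normalization (adjusted p = 0.00658) and -1.82 without mouse 4. It was -1.46 without mice 1 to 3 (adjusted p = 0.00607) and -1.48 without mice 5 to 8 (adjusted p = 0.036). The kinase Akt1, which acts below the receptor, fell by 1.12 (SE 0.228, adjusted p = 0.00954) in the probe set used for the list. That probe set was 7.85 to 9.57 in EW16 against 9.75, 10.01, 9.85, 9.61 and 9.83 in EC16. Of the 4 probe sets of Akt1 it was the 1 that passed. The others were at -0.95 (adjusted p = 0.0503), 0.15 (adjusted p = 0.307) and -0.12 (adjusted p = 0.38). Irs2 and Akt1 were the 2 genes called, both lower, of 32 measured on the insulin signaling list. Over 18193 genes with 1 probe set each, 3.52% fell and 0.236% rose, and no result about the list is read from the count of 2. The list median was -0.17 as deposited and 0.05 after quantile normalization. That median was 0.10 without mice 1 to 3, when 3 members rose and 2 fell, and -0.49 without mice 5 to 8, when none passed. Socs1, an inhibitor of cytokine and insulin receptor signaling with the next smallest p, was at -0.76 (adjusted p = 0.014).

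For the kinase Pdpk1, which phosphorylates Akt, and for Pik3ca, the catalytic subunit of phosphoinositide 3-kinase, the probe sets of a gene differed. One probe set of Pdpk1 rose by 1.20 (SE 0.183, adjusted p = 0.00302), at 8.46 to 9.80 in EW16 against 8.11, 8.30, 8.01, 8.14 and 8.08 in EC16. The other was at -0.31. Of the 6 probe sets of Pik3ca, 2 rose, the larger by 1.04 (adjusted p = 0.00586), and the lowest was at -0.17. These rises therefore belong to single probe sets and not to all transcripts that the array assigns to the gene.

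Neither gene whose deletion defines the comparison genotype passed the test. Insr, the insulin receptor, was at 0.34 (SE 0.199, adjusted p = 0.279), or 0.57 after quantile normalization (adjusted p = 0.022), and Irs1 at -0.02 (SE 0.258, adjusted p = 0.958). Their values overlapped between the groups. The one Apoe probe set measured 6.36 to 7.07 in EW16 and 6.45 to 7.36 in EC16 (difference -0.09, adjusted p = 0.75). The genotype is ApoE -/- in all 13 mice and the position of this probe set relative to the deleted part is not given in the sources used here, so it does not check the labels.

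Krüppel-like factors are zinc finger transcription factors, several of which act in adipocyte differentiation. Klf5 was the one of 11 measured members called, at 8.15, 7.56, 8.17, 8.08 and 8.08 on chow and 5.55 to 7.22 (median 6.05) on the Western diet. It fell 3.63-fold without overlap (difference -1.86, SE 0.225, adjusted p = 0.00168), and 2 further probe sets of Klf5 did not pass (-0.70 and 0.14). Without mice 1 to 3 the difference was -1.88 (adjusted p = 0.00212), and without mice 5 to 8 it was -1.57 (adjusted p = 0.0192). For Klf6, the probe set used for the list was at 0.93 as deposited (adjusted p = 0.056) and rose by 1.21 after quantile normalization (adjusted p = 0.00341). Of its 4 other probe sets, 2 rose as deposited, by 0.78 (adjusted p = 0.00667) and 0.58 (adjusted p = 0.00844), and the lowest was at -1.27 (adjusted p = 0.026). Klf4, chosen after its values were seen, had 1 probe set that fell by 1.70 (adjusted p = 0.00359; EC16 10.59 to 11.06, EW16 8.42 to 10.47) and 1 at 0.06 (adjusted p = 0.911; EC16 12.41 to 12.98, EW16 11.55 to 13.40). No single direction can be given for Klf4 from these arrays. The family median was -0.002 as deposited, 0.24 after quantile normalization, 0.11 without mice 1 to 3 and -0.23 without mice 5 to 8. Over all genes with 1 probe set each, 3.75% were called as deposited.

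The rises included cholesterol transport genes. Abcg1, a transporter that exports cholesterol to lipoproteins, measured 9.75, 10.31, 9.63, 9.72 and 10.31 on chow and 10.61 to 11.61 (median 11.17) on the Western diet. It rose 2.30-fold without overlap (difference 1.20, SE 0.186, adjusted p = 0.00317), and by 1.45 after quantile normalization (adjusted p = 0.000439). It was 1.41 higher without mice 1 to 3 (adjusted p = 0.00107) and at 0.95 without mice 5 to 8 (adjusted p = 0.0271). Its second probe set was at 0.48 (adjusted p = 0.131), or 0.66 after quantile normalization (adjusted p = 0.0111). Gramd1b, which carries cholesterol from the plasma membrane to the endoplasmic reticulum, rose by 1.26 (adjusted p = 0.00635) and 0.88 (adjusted p = 0.00337) in its 2 probe sets. These were the 2 genes called of 14 measured LXR targets and efflux genes, and the remaining 12 lay between -0.87 and 0.21. Over all genes with 1 probe set each, 0.236% rose and 3.52% fell. The list median was 0.075, or 0.29 after quantile normalization, and it was 0.13 without mice 1 to 3 and -0.33 without mice 5 to 8. None of 17 genes of cholesterol synthesis and uptake passed in either scaling (median -0.23, and -0.04 after quantile normalization). None of 20 genes of lipogenesis and triglyceride synthesis passed either (median -0.33 and -0.06).

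Leptin, Lep, the hormone by which fat signals its stores, was above every chow mouse in 7 of the 8 EW16 mice. The chow values were 9.64, 9.56, 9.72, 9.81 and 9.66 and the EW16 values 9.41 to 11.62 with a median of 10.99. As deposited the difference of 1.07 did not pass (SE 0.318, adjusted p = 0.0509). It passed after quantile normalization (1.29, adjusted p = 0.00324) and without mice 1 to 3 (1.57, adjusted p = 0.000331), and it was 0.47 without mice 5 to 8 (adjusted p = 0.195). Adipoq (-0.34, adjusted p = 0.295) and Fabp4 (-0.32, adjusted p = 0.235) did not pass under any of these. None of the 16 measured genes of adipocyte identity and lipid storage passed as deposited. Their median was -0.27, and -0.03 after quantile normalization, when Lep rose and the hormone-sensitive lipase Lipe fell by 1.19 (adjusted p = 0.00648). Among 21 adipokines and secreted factors, Lcn2, an iron-siderophore binding protein, fell by 1.41 (adjusted p = 0.00792). Haptoglobin, Hp, which binds free hemoglobin, was at -1.14 as deposited (adjusted p = 0.0105) and passed after quantile normalization (-0.88, adjusted p = 0.00476) and without mice 1 to 3 (-0.82, adjusted p = 0.00686).

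The largest rise belonged to Tfr2, a transferrin receptor with a role in iron sensing. The chow values were 5.60, 5.79, 5.67, 5.40 and 4.34, and the EW16 values 6.37 to 8.70 with a median of 7.70. The 4.80-fold difference (2.26, SE 0.366, adjusted p = 0.00369) was without overlap, and the second probe set of the gene rose by 0.64 (adjusted p = 0.00821). Next in size were Sox11 (1.70), Myo1d (1.40), Atp10a (1.31), Rell1 (1.29), Gramd1b (1.26), Abcg1 and Pdpk1 (1.20 each), Atp8b1 (1.17), Pfdn2 (1.15), Golga3 (1.07) and Pik3ca (1.04). Atp10a and Atp8b1 encode P4-type flippases, which move phospholipids across membranes. Atp10a lay between 9.23 and 9.75 in EW16 and measured 8.39, 7.61, 8.24, 8.79 and 7.73 in EC16. Of these 12 genes, 8 did not overlap between the groups, and all 12 passed without mice 1 to 3. The 12 were picked from probe sets already called, and 861 of all 1200 called probe sets did not overlap. Without mice 5 to 8 none passed, with adjusted p-values of 0.0153 to 0.0484. The genes with several probe sets did not all move as a whole. Sox11, a transcription factor, had 6, of which the one called was the highest and the lowest was at -0.42. Myo1d, Rell1, Golga3 and Atp10a each had a probe set with a difference under 0.

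The 12 largest falls were, after Cyp1a1, Tmem109 (-2.31), the transcription factor Nfix (-2.11), the endosomal GTPase Rab14 (-2.08), Hmox1 (-2.05), the kinase Stk39 (-2.04), Ptov1 (-2.01), the secreted glycoprotein Lrg1 (-1.99), Upk3b (-1.99), Gpx3 (-1.96), the mitochondrial ribosomal protein gene Mrpl19 (-1.87) and the transcription factor Sox4 (-1.87). Of the 12, 9 did not overlap between the groups and 11 passed without mice 1 to 3, the exception being Rab14 (adjusted p = 0.0121). These too were picked from called probe sets, of which 861 of 1200 did not overlap. Without mice 5 to 8 none passed, with adjusted p-values of 0.0153 to 0.0452. Rab14 had 7 probe sets from -2.08 to 0.53 and Sox4 had 8 from -1.87 to 0.31. For 3 more genes the probe set of highest mean did not pass. It was at -0.59 for Tmem109 (adjusted p = 0.134), -0.30 for Stk39 (adjusted p = 0.307) and -0.75 for Mrpl19 (adjusted p = 0.0358). Of 3 probe sets of Ptov1, 2 fell, as did the 2 of Upk3b. Of 5 probe sets of Nfix, 3 fell. In the 59 probe sets named here that passed as deposited, EW16 and EC16 overlapped in 15. Without mouse 4 they overlapped in 3 (Egln3, Gramd1b and Rell1), and all 59 passed. The 59 were chosen because they passed, and mouse 4 was singled out for lying near the chow mice on called probe sets. The smaller overlap without it follows in part from these choices and is no independent check.

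Of the markers of other cell types, several mesothelial and muscle markers were lower, and no macrophage, epithelial or blood cell marker passed. RNA of a whole preparation cannot tell fewer cells of a type from less RNA per cell. Mesothelial cells form the lining that covers abdominal fat pads. Of 12 measured mesothelial markers 3 fell and none rose, against 3.52% of all genes that fell and 0.236% that rose. The median difference of the list, -1.04 (-0.96 after quantile normalization), was the lowest of the 36 lists. Without mice 1 to 3 the median was -0.98 and 1 marker passed, Upk3b, and without mice 5 to 8 it was -0.92 and none passed. The median over markers ranged from 5.79 to 6.66 in the EW16 mice and from 6.71 to 7.65 in the EC16 mice. Upk3b fell by 1.74 in the probe set used for the list, at 7.29 to 9.07 in EW16 against 9.54, 10.16, 9.46, 9.40 and 10.48 in EC16 (SE 0.31, adjusted p = 0.00533). It was at -1.30 without mice 1 to 3 (adjusted p = 0.00411) and at -2.03 without mice 5 to 8 (adjusted p = 0.0244). The transcription factor Wt1 fell by 1.43 (adjusted p = 0.00897) and the keratin Krt19 by 1.20 (adjusted p = 0.00792), each with mouse 4 within the chow range and no other EW16 mouse.

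Some smooth muscle genes were also lower. Tagln, an actin-binding protein, measured 10.66, 11.39, 11.35, 11.34 and 11.77 on chow and 9.17 to 10.43 (median 9.64) on the Western diet and fell 3.07-fold (difference -1.62, SE 0.216, adjusted p = 0.00233). The intermediate filament gene Des fell by 1.17 (adjusted p = 0.0028), and its second probe set was at 0.40 (adjusted p = 0.112). Tagln and Des were the 2 called of 14 markers of muscle and uterine smooth muscle, against 3.52% of all genes that fell. Of the 14, 5 had positive differences. The list median was -0.54, or -0.29 after quantile normalization, when Myh11, a smooth muscle myosin, passed as well (-0.73, adjusted p = 0.00817). The median was -0.40 without mice 1 to 3, with the count of calls again 2, and -0.68 without mice 5 to 8, when none passed. Smtn, a smooth muscle cytoskeletal gene chosen after its values were seen, fell by 1.56 (adjusted p = 0.0016) without overlap. None of 21 macrophage markers (median 0.04), 17 endothelial markers (-0.41), 12 mammary and other epithelial markers (0.17) or 7 blood cell markers (0.23) passed as deposited. After quantile normalization 1 endothelial marker rose and 1 fell, the latter Egfl7 (-0.57, adjusted p = 0.00564), and none of the other 3 lists had a call. Of 15 lymphocyte and immunoglobulin genes, Gata3, a transcription factor of T cells and other tissues, fell by 0.71 (adjusted p = 0.00898). The median over the 14 muscle markers ranged from 7.39 to 8.84 in EW16 and from 8.49 to 9.75 in EC16. These 2 ranges overlap, while those of the mesothelial list do not. Of the 36 lists, 3 had ranges without overlap, the others being the NRF2 and cytoplasmic ribosomal protein lists. The part of the mesothelial and muscle markers in the results above was not tested.

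The 36 lists held 657 distinct genes, of which 34 (5.18%) passed, 4 higher and 30 lower. Over 18193 genes, each with its probe set of highest mean, 683 (3.75%) passed, 43 higher and 640 lower. In 13 of the 36 lists no member passed. A negative median was found in 30 lists as deposited and in 23 after quantile normalization. In the remaining lists with a call, the calls were few. Among the cell cycle genes the cyclin-dependent kinase inhibitor Cdkn1c fell from 10.20, 10.77, 10.11, 10.45 and 9.73 on chow to 8.11 to 9.14 on the Western diet (difference -1.59, SE 0.179, adjusted p = 0.00142), and the replication factor Mcm3 fell by 1.04 (adjusted p = 0.00971) and did not pass after quantile normalization (adjusted p = 0.0106). The eosinophil chemokine Ccl11 fell by 1.77 (adjusted p = 0.00411) as the one call among 24 cytokine and NF-kB genes, at 8.80 to 11.12 in EW16 and 10.98 to 11.68 in EC16. Of 20 genes of branched-chain amino acid breakdown and the TCA cycle, the aminotransferase Bcat2 fell by 1.53 (adjusted p = 0.00703).

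The other lists with a call gave 1 or 2 each. Sdhd, a succinate dehydrogenase subunit, fell by 0.90 (adjusted p = 0.00327) among 24 oxidative phosphorylation genes, and Hadha, of the mitochondrial trifunctional protein, fell by 0.71 (adjusted p = 0.00962) among 17 fatty acid oxidation genes. Of 25 proteasome genes Psma4 (-1.15, adjusted p = 0.00783) and Psmb1 (-0.91, adjusted p = 0.00836) fell. Psma4 did not pass after quantile normalization (-0.90, adjusted p = 0.0145). The ribosomal stalk protein gene Rplp0 fell by 0.94 (adjusted p = 0.00456) among 26 cytoplasmic ribosomal protein genes. Atf4, a stress-response transcription factor, fell by 0.82 (adjusted p = 0.00475) and did not pass after quantile normalization (-0.56, adjusted p = 0.102). The oxygen-dependent prolyl hydroxylase Egln3 likewise passed as deposited (-0.68, adjusted p = 0.00997) and not after quantile normalization (-0.44, adjusted p = 0.157). Hnrnpl, a splicing regulator, fell by 0.98 (adjusted p = 0.00279), and Pnisr, of the same list, rose by 0.68 (adjusted p = 0.00932). The kinase Rps6kb2 of the mTOR list fell by 1.05 (adjusted p = 0.00585) and the clock-linked repressor Nfil3 by 1.47 (adjusted p = 0.00858). The interferon-induced gene Rsad2 rose by 0.84 (adjusted p = 0.00868) in 1 of its 3 probe sets. The others were at -0.35 (adjusted p = 0.383) and 0.23 (adjusted p = 0.351). No member passed among the stroma and extracellular matrix, thermogenic, immediate early, heat shock, autophagy and lysosome, or nuclear noncoding RNA lists as deposited. After quantile normalization the metalloproteinase inhibitor Timp3 of the stroma list (-0.90, adjusted p = 0.00694) and the lysosomal channel Mcoln1 (-0.45, adjusted p = 0.00738) fell, and the stress gene Gadd45a of the immediate early list rose (1.15, adjusted p = 0.00386). One probe set of the nuclear RNA Malat1, chosen after its values were seen and not the one used for the list, rose by 1.00 (adjusted p = 0.00255), and the 7 probe sets of Malat1 lay between -0.73 and 1.19.

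**Figure D4:**
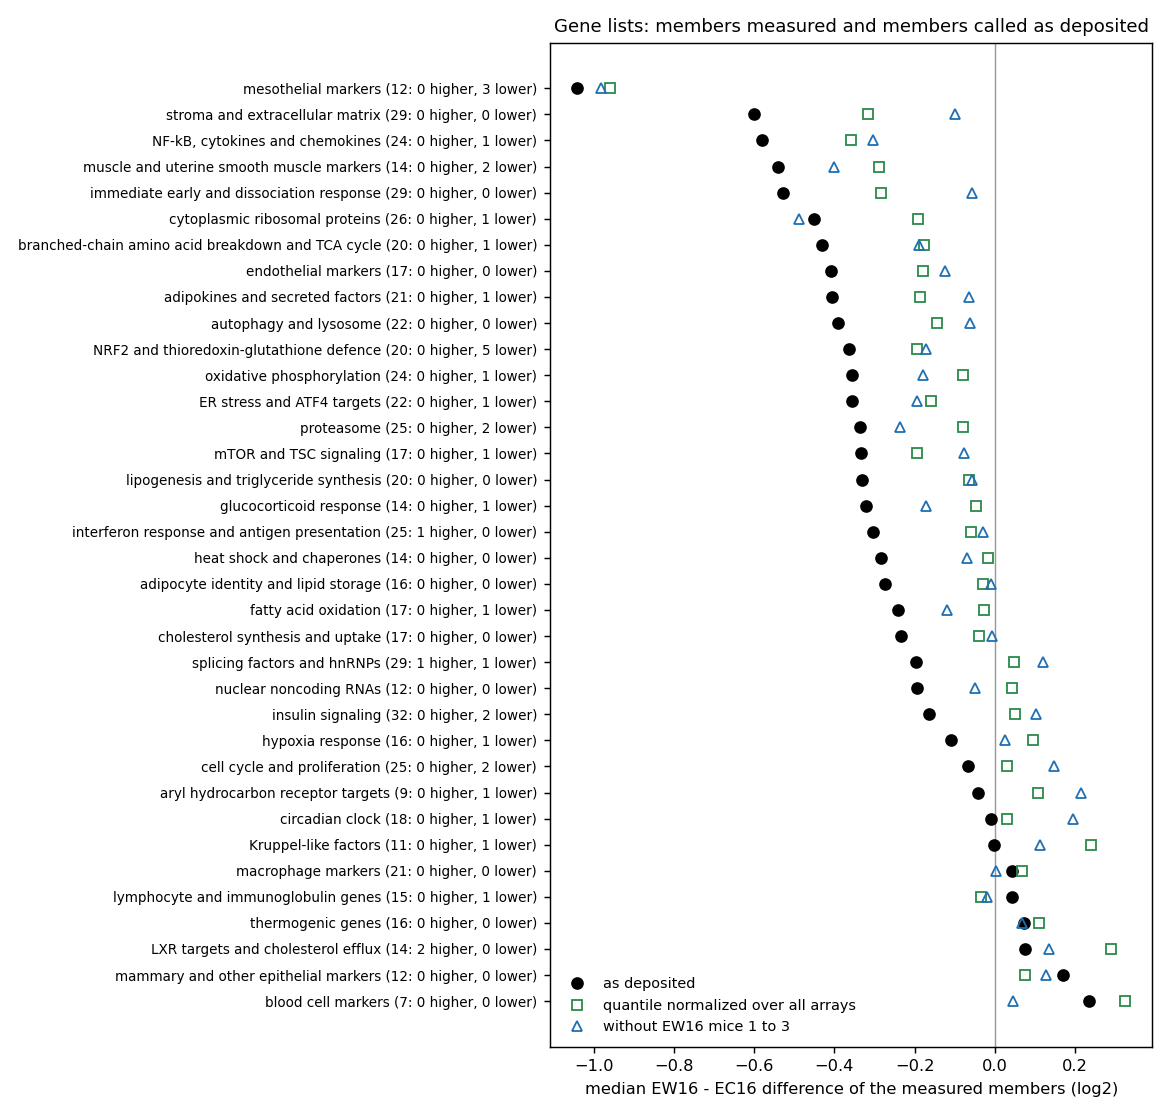
Median log2 difference, EW16 minus EC16, over the measured members of each of the 36 gene lists, as deposited and after quantile normalization. The mesothelial list is lowest at -1.04, and most lists move toward 0 after quantile normalization.

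The last comparison asked whether the diet difference was the same in ApoE null mice as in mice that were also heterozygous for the insulin receptor and IRS1. The difference of differences, (EW16 minus EC16) minus (DW16 minus DC16), passed in 0 of 45037 probe sets in limma (0%). Its smallest adjusted p was 0.786, and 2844 probe sets (6.31%) had an unadjusted p under 0.05. After quantile normalization it also passed in 0 probe sets, with a smallest adjusted p of 0.661. Without the narrow-range arrays of both genotypes it passed in 0 with a smallest adjusted p of 0.0491, whereas array weights, which count arrays far from their group for less, called 3924. Between DW16 and DC16, 1545 probe sets (3.43%) passed. Of these, 203 also passed between EW16 and EC16, which is 16.9% of the calls in ApoE null mice and 13.1% of those in the other genotype. All 203 had the same sign, and the 2 comparisons share no mice. Most calls were lower in each, 1078 of 1200 in ApoE null mice and 1186 of 1545 in the other genotype, which by itself makes shared signs common. The share of shared signs over all probe sets was not computed. The 2 comparisons do share an array difference, since the narrow range of values was found among EW16 and DW16 arrays and in no chow array. Its part in the shared signs, here and for the genes below, was not tested.

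All 12 of the largest rises and all 12 of the largest falls had the same sign in the IR+/- IRS1+/- ApoE-/- mice, where 4 of the rises and 3 of the falls passed. These 24 were picked as the largest among called probe sets, and no share of shared signs over all calls stands beside them. The diet difference of Cyp1a1 was -3.12 in the IR+/- IRS1+/- ApoE-/- mice (adjusted p = 0.00496), and the difference between the genotypes was -0.12 (95% confidence interval -1.59 to 1.35). For Hmox1 the DW16 minus DC16 difference was -1.89 (adjusted p = 0.00208) and the genotype difference -0.15 (-0.84 to 0.54). For Abcg1 these were 1.06 (adjusted p = 0.000427) and 0.14 (-0.31 to 0.59). Irs2 was at -1.22 (adjusted p = 0.0131), with a genotype difference of -0.41 (-1.26 to 0.45). For none of the 24 did the interval exclude 0, and the intervals of Sox11 (-0.57 to 2.13) and of Cyp1a1 are wide. Klf5 had an interval that excluded 0, with -1.86 in ApoE null mice against -0.82 in the other genotype (difference -1.04, interval -1.73 to -0.35). Its unadjusted p was 0.0048, and over all probe sets its adjusted p was 0.786.

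**Figure D5:**
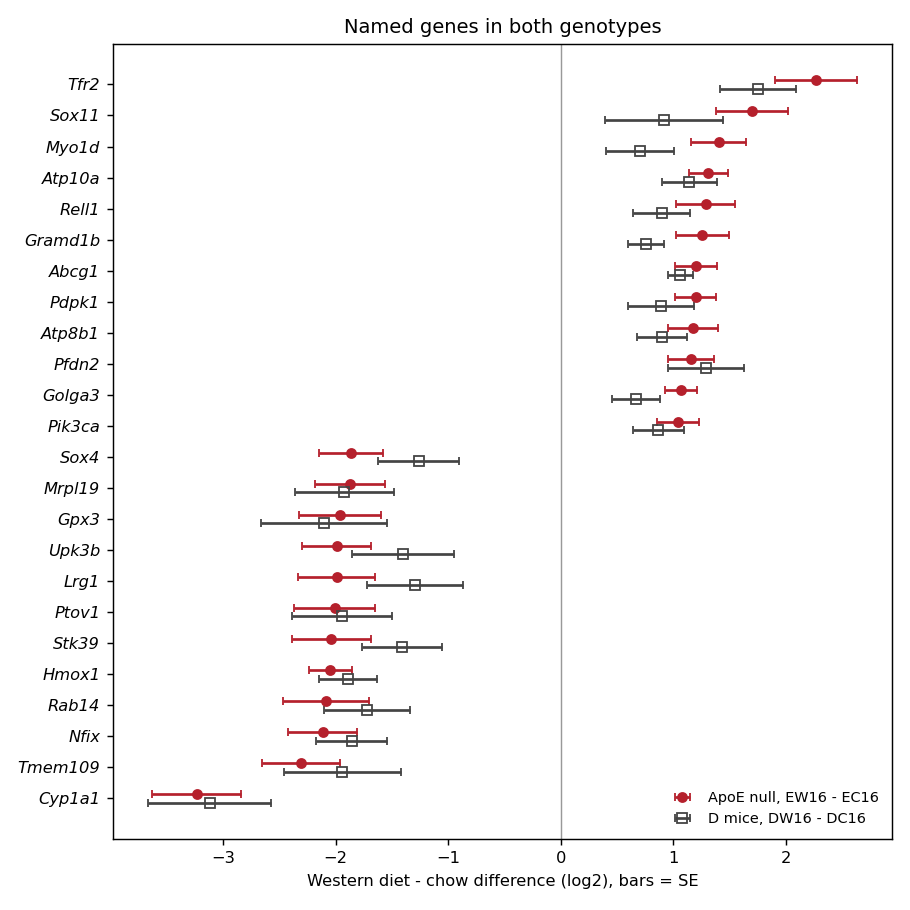
Western minus chow log2 difference at 16 weeks in ApoE null mice and in IR+/- IRS1+/- ApoE-/- mice for the 12 largest rises and 12 largest falls. Bars are standard errors, and both genotypes lie on the same side of 0 for all 24 genes.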

How the data were processed

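Adipocyte RNA of 45 mice was hybridised to Affymetrix MG430-2.0 arrays, 1 per mouse. The authors deposited log2 values after global scaling in the Affymetrix Microarray Suite and RMA (background correction, normalization and summary of probes); neither the versions nor the set of arrays normalized jointly is given in the sources used here. These log2 values were used unchanged (0 value columns left out) or quantile normalized over all 45 arrays. Groups came from the sample titles. EW16 and EC16 were compared with limma 3.58.1 (R 4.3.3), two-sided, Benjamini-Hochberg adjusted over 45037 probe sets, threshold 0.01. The SAM test of the study was not run. The genotype difference was an interaction over 4 groups. Of the probe sets, 34945 had 1 gene symbol, 932 several and 9160 none; genes were represented by the probe set of highest mean, and 686 of 744 gene list entries matched. The text names the 12 largest rises and falls called in both scalings, the 3 members of smallest p per list and the targeted genes, others as marked. The members and lists were chosen with earlier results of these data known. Promoter sequences are from RefSeq (GRCm38.p6). The limma script was tested on simulated data. The number of arrays limits the precision. Alternatives are given at the end.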

Additional observations from a re-analysis of the deposited data

Results flagged for a closer look

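Single mice stood far from the rest of their group (a gap to the next mouse that is large for the range of the group, by Dixon's critical value at 95%) in 15 of 150 groups of values tested, where chance gives about 1 in 20. In 11 of the 15 the mouse was EW16 mouse 4. It was high, on the side of the chow mice, for Tmem109 (11.08), Rab14 (10.11), Irs2 (9.86), Des (7.60), Krt19 (6.53), Wt1 (8.75), Ccl11 (11.12), Psma4 (11.59), Hnrnpl (7.04) and the Klf4 probe set that fell (10.47), and low, again on the chow side, for Sox11 (6.67). EW16 mouse 1 was high for Pnisr (9.52). Among chow mice, mouse 5 was low for Tfr2 (4.34), and mouse 2 was low for Klf5 (7.56) and high for Ppp1r14b (6.32). These genes were picked for their differences, and values of one mouse are not independent across genes.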

How the results depend on the processing

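Of the 59 named probe sets that passed as deposited, none changed sign in the settings run on them. They passed in 59 after centring, 54 after quantile normalization, 55 with 1 spread over all 7 groups, 52 with eBayes trend and robust, 52 without mice 1 to 3, 35 with each array's SD as a covariate and 1 without mice 5 to 8. The 12 largest rises and 12 largest falls among them were chosen for passing in both scalings, so these counts do not stand for all calls. Of all 1200 calls, 686 passed in both scalings with the same sign, and 626 of these also passed without mice 1 to 3. The number of probe sets called (1200) was 3284 with 1 spread over all 7 groups, 7463 with array weights, 1863 among probe sets above the median level, 4170 at an adjusted p of 0.05 and 427 with at least a 2-fold change besides. It was 3160 without the narrow-range arrays and, in alternatives chosen after seeing the data, 3177 without them after quantile normalization, 1 without mice 5 to 8 (14865 at an unadjusted p under 0.05) and 50 without them after quantile normalization. With 1 mouse left out it ran from 38 (EC16 mouse 2) to 3177 (EW16 mouse 4); it was 329 without EC16 mouse 4 and 553 without EC16 mouse 5, and 667, 504, 529, 484 and 617 without EW16 mice 2, 5, 6, 7 and 8. The difference between the genotypes was called in 0 probe sets in each setting run but array weights, which gave 3924; without the narrow-range arrays its smallest adjusted p was 0.0491. With 1 of the 27 mice left out it ran from 0 to 0. Of the 657 list genes, 34 passed as deposited, 74 without the narrow-range arrays, 0 without mice 5 to 8 and 55 with the probe set of smallest p. The cause of these shifts was not tested.

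Titles give the mice replicate numbers, and no label ties a number to a shared litter or batch. Deviations of mice with the same number correlated at 0.07, 0.14, -0.14, -0.09 and 0.20, and 3 of 5 correlated best with their own number. With the replicate block, over replicates 1 to 5, 0 probe sets were called in limma (smallest adjusted p 0.0743, 11480 at an unadjusted p under 0.05), and 1 without the block over the same mice. The replicate block called 0 for the difference between the genotypes.

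Changes of sign were found for probe sets that had not passed. Adipoq was at 0.12 and Fabp4 at 0.0262 with the array SD as a covariate. Apoe was at 0.10 without the narrow-range arrays, 0.15 with the SD covariate and -0.19 to 0.0379 with 1 mouse left out. Insr was at -0.0496 without mice 5 to 8. Irs1 was at 0.21 after quantile normalization, 0.32 without the narrow-range arrays, 0.48 with the SD covariate and -0.12 to 0.13 with 1 mouse left out. The second Klf4 probe set was at -0.27 over replicates 1 to 5 with and without the block, -0.50 without mice 5 to 8 and -0.0310 to 0.23 with 1 mouse left out.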
